A study of Mus musculus with 100 samples.

Results

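The 9 genes described here, Kdr, Flt1, Tek, Tie1, Pecam1, Cdh5, Etv2, Erg and Sox18, are genes of endothelium, the cell layer that lines blood vessels. They were chosen by name as a list of endothelial genes, with earlier results of these data known. They are 9 of the 23109 gene entries counted in 37 RNA sequencing libraries of mouse embryos and cultured cells. The study asked what the methyltransferase activities of MLL3 and MLL4 do in early mouse development. Both enzymes methylate lysine 4 of histone H3 and are encoded by Kmt2c and Kmt2d. The whole embryos were taken at embryonic day 8.5 (E8.5) and 9.5 (E9.5), with 3 embryos in each group. Control embryos had the genotype Mll3flox/KI;Mll4flox/+;Sox2-Cre and KI embryos Mll3flox/KI;Mll4flox/KI;Sox2-Cre, so both groups carried a floxed and a KI allele of Mll3 and the Cre transgene, and they differed in the second Mll4 allele. Sox2-Cre is active in the epiblast and recombines floxed alleles in the cells of the embryo proper, while much of the extraembryonic tissue keeps them. The labels do not spell out KI, which in the published work on these alleles is a knock-in that inactivates the enzyme.

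The cultured cells were embryonic stem cells (ESCs) and cultures grown from them. The reference, termed flox here, was Mll3-/-;Mll4flox/flox, and the KI cells were Mll3-/-;Mll4KI/KI, so that all cultures lacked Mll3 by their labels. The KI libraries came from clones 27 and 48, 1 library per clone and stage. ESCs (day 0) and embryoid bodies (EBs, suspended aggregates that differentiate without added lineage factors) at days 4 and 10 had 1 flox library a day. Neural cultures treated with retinoic acid, sampled as progenitors (day 8) and as neurons (day 16), trophectoderm (TE) cultures at day 6, made with an inducible CDX2 construct, and extraembryonic endoderm (ExEn) cultures at day 5 had 2 flox libraries each. No label says that the flox libraries of a stage came from separate cultures, so that the p-values of these groups may measure technical spread only.

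Endothelial cells arise from mesoderm that expresses Kdr. Etv2, an ETS transcription factor, acts briefly in these progenitors and is needed for blood and endothelial fates, and Erg, another ETS factor, and Sox18, of the SOXF family, act later in vessel formation. Kdr (VEGFR2) is the main signalling receptor for VEGF-A, and Flt1 (VEGFR1) binds the same ligand and largely restrains it. Tek (TIE2) is the receptor of the angiopoietins, and Tie1 is its partner with no well-defined ligand of its own. Cdh5 (VE-cadherin) and Pecam1 (CD31) are adhesion proteins of endothelial junctions, and Pecam1 is also found on mouse ESCs and on blood cells. Flt1 is also known from trophoblast.

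Levels are given in CPM, the reads of a gene scaled to a common library size by the gene-level total of each library, which ran from 18908148 to 59880727 reads. A gene with no read could have had up to 3 reads by counting error alone, equal to 0.05 CPM in the deepest and 0.16 in the shallowest library. The KI change lies in the protein and cannot be read from counts. Kmt2d stood between 149 and 334 CPM in all libraries. Kmt2c, the gene of MLL3, stood between 27.6 and 99.4 CPM in the cultures labelled Mll3-/- and between 33.2 and 63.2 in embryos, so that these counts do not show the loss that the label states. Whether the counted transcript lies outside the deleted part was not tested. Labelled cell types were checked against marker genes. The neural libraries carried 425 to 1557 CPM of the neuronal tubulin gene Tubb3, and the ESC libraries 1392 to 1478 CPM of the pluripotency gene Pou5f1. In the libraries labelled ExEn, the endoderm factor Gata4 was at 169 to 183 CPM in flox and 15.5 to 17.7 in KI, and Afp at 42.5 to 47.0 and 0.71 to 0.75. In the libraries labelled TE, the trophectoderm factor Cdx2 was at 27.1 to 29.9 CPM in flox and 103 to 107 in KI, and Gata3 at 16.6 to 17.8 and 60.6 to 66.7. The TE flox libraries also held Pou5f1 at 222 to 223 CPM and Nanog at 82.7 to 83.3, against 62.6 to 110 and 14.4 to 28.6 in KI, so that flox TE was lower in TE genes and higher in ESC genes than KI TE. The 2 flox libraries of neural day 8 stood closest of all replicate pairs, with 1.5 as chi-square over degrees of freedom against up to 54.83, so that their replication may be overstated. A gene is termed called when its adjusted p (edgeR's quasi-likelihood test with Benjamini-Hochberg adjustment over all genes tested) was under 0.05.

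Promoter sequence was available for 6 of the 9 genes (RefSeq, GRCm38.p6), and is shown because Etv2 and Erg belong to the ETS family and the members moved together in one of the comparisons. The 250 bases before each listed gene start were searched on both strands for GGAAG, which contains the core bases that ETS factors bind and reads CTTCC on the other strand, and for the GATA motif AGATAA. The motif GGAAG was present in 64.1% of all 32851 listed promoters over the same length, and AGATAA in 10.0%. The 6 matches in Tie1 did not overlap. Kdr had 1 GGAAG match, Flt1 3, Etv2 2 and Tek 0, and of the 3 listed Erg starts 1 had 0 matches and the others 1 each. AGATAA was found once, at an Erg start. With 64.1% of promoters holding the motif, its presence does not set these genes apart. The Tie1 window, chr4:118489850-118490099 on the minus strand, is shown whole, 5′ to 3′ toward the gene, with GGAAG or CTTCC in capitals:
Tie1: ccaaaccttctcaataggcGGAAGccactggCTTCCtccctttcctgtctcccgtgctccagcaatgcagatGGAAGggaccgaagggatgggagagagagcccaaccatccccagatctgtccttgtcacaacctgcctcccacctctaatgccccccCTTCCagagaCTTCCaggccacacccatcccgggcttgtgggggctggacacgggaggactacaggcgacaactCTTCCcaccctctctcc
Matches in Kdr (chr5:75978657-75978681), Flt1 (chr5:147726049-147726073, the nearest of its 3 to the start) and Etv2 (chr7:30635952-30635976, the nearer of its 2) are shown with 10 bases on each side, all on the minus strand, since those windows lie inside the annotated gene bounds:
Kdr: ctacattttaCTTCCaccagaaacc
Flt1: tgccggggtaGGAAGtgggctgggg
Etv2: cttttcctggGGAAGgaggttgcag

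Across the 18 groups the 9 genes followed several patterns. Cdh5, Tie1, Erg and Sox18 were highest in embryos and day 10 EBs, lower in neural day 8 flox cultures, and low elsewhere. Tek shared this pattern but was at 6.98 to 12.2 CPM in ESCs. Pecam1 was high in ESCs too, at 67.4 to 102 CPM, and Flt1 was the leading member in TE and ExEn cultures. The pairwise Pearson correlation of log2(CPM + 1) over the 37 libraries, which share culture systems and stages, ranged from 0.08 for Flt1 and Pecam1 to 0.981 for Cdh5 and Tie1 and for Tie1 and Erg. Over the 12 embryos the lowest was -0.713 for Etv2 and Erg, which moved in opposite directions between E8.5 and E9.5, and the highest 0.945 for Cdh5 and Tie1. The non-member genes whose levels were most like the mean of the standardized members over the 37 libraries were Icam2 (0.956), Stab1 (0.951), Grap (0.95), Tnni1 (0.943) and Cd34 (0.942). Icam2, Stab1 and Cd34 also stood in the list of other endothelial genes. Over the 12 embryos they were Lama4 (0.967), Svil (0.944), Fkbp10 (0.936), Cd63 (0.931) and Ndel1 (0.931), none of them in a list used here.

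**Figure D1:**
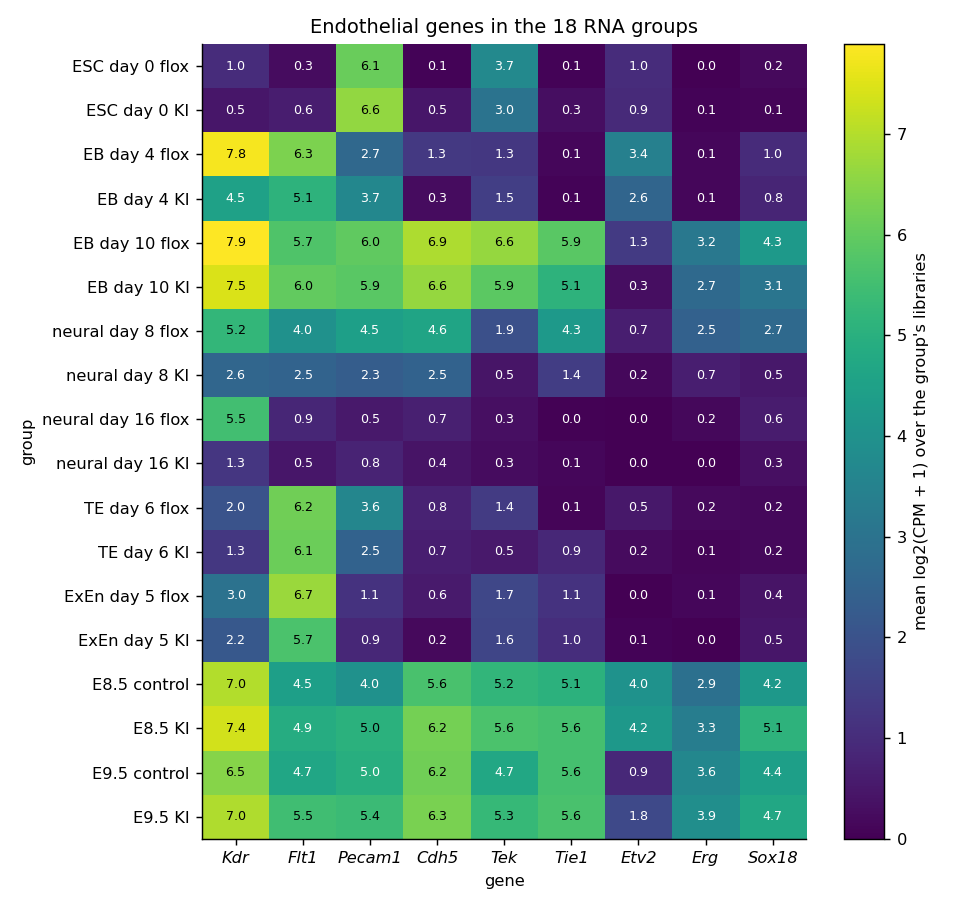
Mean log2(CPM + 1) of the 9 genes (columns) in the 18 groups (rows), with the value printed in each cell and a colour scale from 0 upward. Cdh5, Tie1 and Erg stand high in embryos and day 10 EBs, Pecam1 also in ESCs, and Flt1 leads in TE and ExEn.

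Per length (RPKM, as deposited), Kdr led in E8.5 control embryos with a mean of 17.7 (15.5 to 19.3). Etv2 followed with 11.5 (9.6 to 13.8), Cdh5 with 9.42 and Sox18 with 8.41 (7.13 to 10.2). The values of Etv2, Cdh5 and Sox18 overlapped. Tie1 (6.57, 5.59 to 7.35) overlapped Sox18 above it and Tek (5.86) below it. Pecam1 stood at 3.55, and Flt1 (2.58) and Erg (2.32) stood last with overlapping values. In E9.5 control embryos Cdh5 had the highest mean RPKM, 14.0 (12.8 to 15.8), against 12.4 for Kdr (11.4 to 13.4), which overlapped it. Etv2 was last there at 0.647 (0.585 to 0.744), below all values of the other 8 genes.

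At E8.5, 4 members rose in KI embryos, Pecam1, Sox18, Cdh5 and Kdr, and 0 fell, where 3.63% of all 15436 genes tested were called higher. All 9 had a positive log2 fold change, with a median of 0.50 against -0.01 over all genes. For 6 of the 9, every KI embryo lay above every control embryo, as for 12.0% of all genes. Whole embryos were sequenced, so that a larger share of endothelial cells and more RNA per endothelial cell cannot be told apart.

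Among the receptors, Kdr was at 129.6, 137 and 109.8 CPM in control embryos 1 to 3 and at 155, 153 and 185 CPM in KI embryos 1 to 3. All KI values were higher, 1.31-fold on average (log2 0.39 ± 0.09 SE, adjusted p = 0.0138). Flt1 was at 23.6, 21.0 and 18.4 CPM in controls and 27.1, 24.0 and 35.5 in KI embryos, again without overlap, and missed the threshold (log2 0.46 ± 0.14, adjusted p = 0.0603). Embryos whose titles share a number deviated together at E8.5, and with that number as a block Flt1 was called (log2 0.45, adjusted p = 0.0347). Tek was at 38.1, 35.8 and 32.3 CPM in controls and 48.9, 38.0 and 63.6 in KI embryos, which overlap (log2 0.50 ± 0.18, adjusted p = 0.133). Tie1 was at 33.9, 37.1 and 28.3 CPM in controls and 48.2, 36.0 and 57.1 in KI embryos (log2 0.51 ± 0.14, adjusted p = 0.0515). KI embryo 2 was the lowest KI embryo for both TIE receptors and lay within the controls for Tie1.

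Both adhesion genes were called. Pecam1 was at 12.9, 18.9 and 13.9 CPM in control and 30.7, 25.0 and 42.3 in KI embryos, 2.13-fold higher (log2 1.09 ± 0.17, adjusted p = 0.0016). Cdh5 was at 46.6, 51.3 and 48.5 CPM in control and 72.5, 57.5 and 97.9 in KI embryos, 1.56-fold higher (log2 0.64 ± 0.14, adjusted p = 0.0221). Neither gene's groups overlapped, and KI embryo 3 was the highest in both.

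Of the transcription factors, Sox18 was at 16.5, 21.6 and 15.1 CPM in control and 32.5, 28.0 and 39.9 in KI embryos, 1.88-fold higher without overlap (log2 0.91 ± 0.16, adjusted p = 0.00177). Erg was at 5.23, 7.74 and 7.10 CPM in control and 8.97, 7.91 and 10.7 in KI embryos and was not called (log2 0.45 ± 0.18, adjusted p = 0.149). Etv2 was at 13.0, 18.9 and 15.0 CPM in control and 14.7, 21.7 and 17.4 in KI embryos, which overlap (log2 0.20 ± 0.19, adjusted p = 0.633). Within each of the 3 title numbers KI exceeded control for every member except Tie1 in the pair of embryos 2, at 0.97 times control. The ratio was highest in the pair of embryos 3 for every member except Erg, from 1.16 for Etv2 to 3.05 for Pecam1.

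The number of called members at E8.5 depended on single embryos. It was 2 without control embryo 3, where 1.51% of all genes were called higher, and 7 without KI embryo 2, where 2.95% were. Without KI embryo 3 the Kdr call was lost and those of Pecam1, Cdh5 and Sox18 held, where 1.48% of all genes were called higher. DESeq2 called 7 members higher, where it called 747 of 15810 genes higher. Pecam1 and Sox18 were called under all 12 alternatives run, Kdr under 10 and Cdh5 under 9.

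**Figure D2:**
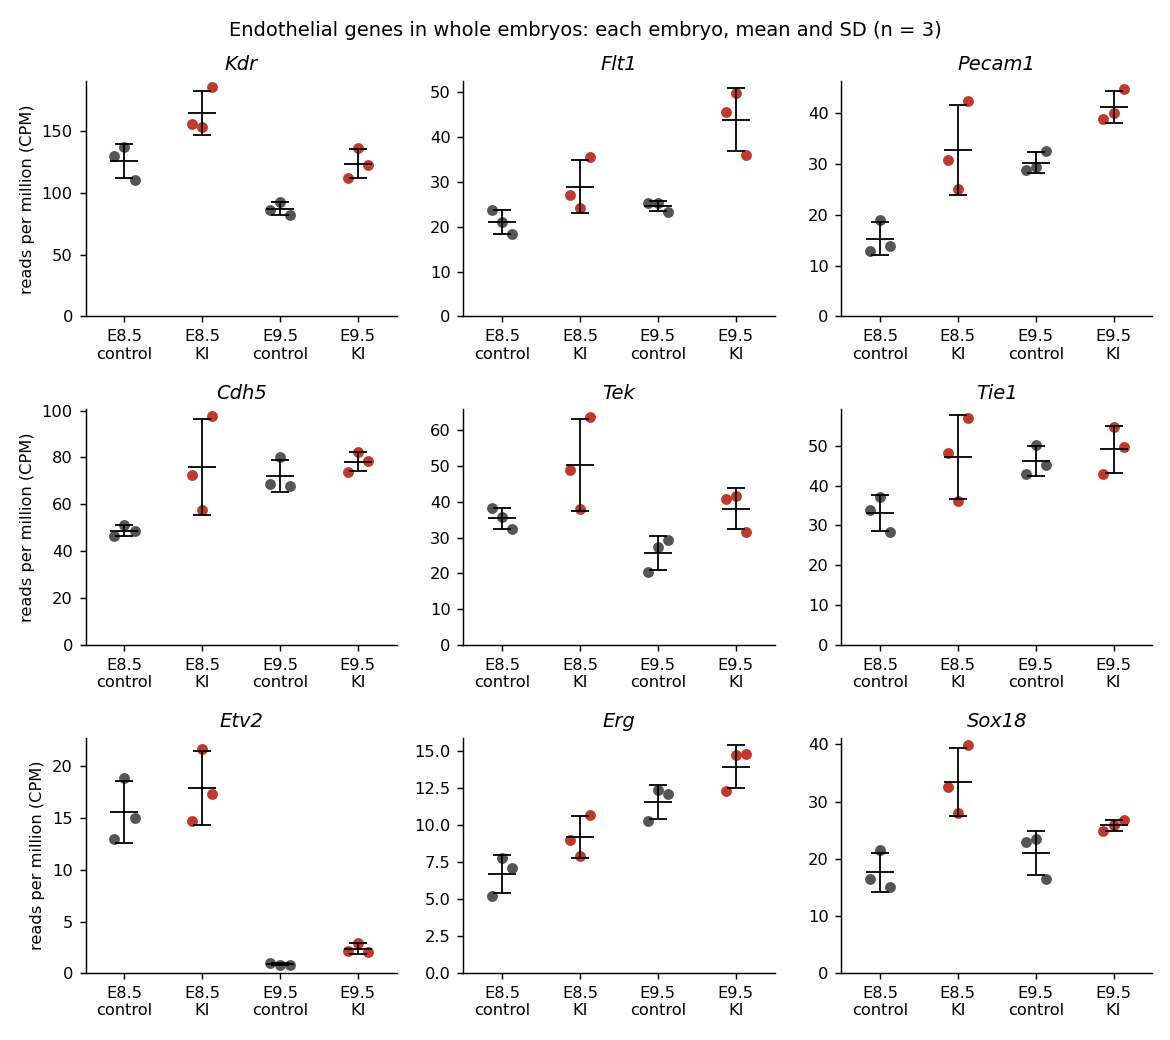
CPM (linear axis from 0) of each gene in every embryo, with control embryos in grey, KI embryos in red, and black bars for the mean and SD of 3 embryos. Pecam1 and Sox18 separate the groups at E8.5, Flt1 and Kdr at E9.5, and Etv2 falls to under 3 CPM at E9.5 in both groups.

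Of 65 other endothelial genes, 19 were called higher and 2 lower at E8.5 (1.83% of all genes were lower), with a median log2 fold change of 0.27 against -0.01 over all genes. The 26 surface and junction genes had 9 higher and 0 lower, and the 14 endothelial and haemogenic transcription factors 2 higher and 0 lower. Adgrl4, an adhesion G protein-coupled receptor of endothelium, was at 2.37 ± 0.95 CPM in control and 6.51 ± 2.39 in KI embryos (SD, n = 3; log2 1.43, adjusted p = 0.00526). Robo4, an endothelial guidance receptor, rose (log2 1.22, adjusted p = 0.0229), as did Acvrl1, a BMP receptor of endothelium (log2 1.16, adjusted p = 0.000131). Angpt4, a TEK ligand, fell from 0.88 to 0.09 CPM on average (log2 -3.22, adjusted p = 0.0151), and Nr2f2, a factor of venous identity, fell by 0.46 on the log2 scale (adjusted p = 0.00178). Lists of genes known from other cell types had the following levels. Primitive erythroid genes summed to 754 to 1540 CPM in control and 119 to 225 in KI embryos, with 0 of 10 called and none at 0. Trophoblast genes summed to 204 to 245 CPM in control and 356 to 391.9 in KI embryos, with 2 of 8 tested called higher, 1 lower and 2 of the 10 listed at 0 in both groups. Cdx2 of that list was at 75.8 to 120 CPM in control and 101 to 128 in KI embryos, which overlap. Cardiac muscle genes summed to 723 to 1195 CPM in control and 1058 to 1790 in KI embryos, with 1 of 10 called higher, none at 0 and a median log2 fold change of 0.57. Gata4 was at 36.1 to 47.7 CPM in control and 65.8 to 74.0 in KI embryos, Gata6 at 47.4 to 52.3 and 65.6 to 85.6, and Krt8 at 265 to 343 and 381 to 491. Of the neural genes, Map2 was at 7.57 to 8.26 CPM in control and 3.04 to 4.18 in KI embryos and Nes at 125 to 158 and 102 to 108, while Tubb3 and Pax6 overlapped between the groups. The part of these tissues in the endothelial results was not tested.

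At E9.5, 4 members rose in KI embryos, Kdr, Flt1, Tek and Etv2, and 0 fell, where 14.6% of all genes were called higher. All 9 log2 fold changes were again positive, with a median of 0.44 against 0.01 over all genes, and for 6 of the 9 the groups did not overlap, as for 22.6% of all genes with KI above control.

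The VEGF receptors both rose. Kdr was at 85.8, 92.7 and 82.2 CPM in control and 112, 136 and 122 in KI embryos, 1.42-fold higher (log2 0.50 ± 0.09, adjusted p = 0.000411). Flt1 was at 25.1, 25.3 and 23.2 CPM in control and 45.5, 49.7 and 36.0 in KI embryos, 1.78-fold higher (log2 0.83 ± 0.14, adjusted p = 0.000195). Neither overlapped. Of the TIE receptors, Tek was at 20.4, 27.3 and 29.4 CPM in control and 40.9, 41.7 and 31.4 in KI embryos (log2 0.57 ± 0.18, adjusted p = 0.0327), with KI embryo 3 close to control embryo 3. Its call held in 6 of 12 alternatives. Tie1 was at 43.0, 50.3 and 45.1 CPM in control and 42.9, 54.7 and 49.7 in KI embryos, which overlap (log2 0.09 ± 0.14, adjusted p = 0.686).

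The adhesion genes were not called in the fit of all embryos. Pecam1 was at 28.7, 29.4 and 32.5 CPM in control and 38.8, 39.9 and 44.6 in KI embryos, without overlap (log2 0.44 ± 0.17, adjusted p = 0.0561), and was called by DESeq2 (adjusted p = 0.0354) and in a fit of the E9.5 embryos alone (adjusted p = 0.00427). Cdh5 was at 68.6, 80.0 and 67.7 CPM in control and 73.9, 82.2 and 78.4 in KI embryos, which overlap (log2 0.11 ± 0.14, adjusted p = 0.591).

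Etv2, the early endothelial and blood factor, was at 0.99, 0.78 and 0.85 CPM in control and 2.20, 2.96 and 2.03 CPM in KI embryos. These levels rest on 19 to 25 reads in a control and 46 to 69 in a KI embryo. Every KI embryo was above every control, 2.73-fold on average (log2 1.45 ± 0.26, adjusted p = 0.000308), and the call held under all 12 alternatives run. Sox18 was at 22.9, 23.6 and 16.6 CPM in control and 24.9, 25.9 and 26.8 in KI embryos (log2 0.29 ± 0.15, adjusted p = 0.162). Erg was at 10.2, 12.3 and 12.1 CPM in control and 12.3, 14.7 and 14.8 in KI embryos (log2 0.27 ± 0.17, adjusted p = 0.255), so that KI embryo 1 lay within the controls. Within both title numbers of this stage, one shared by embryos 1 and 2 of each group and one by embryos 3, the mean of the KI embryos exceeded that of the controls for all 9 members (1 embryo each in the second number), with Etv2 at 2.91 and 2.39 times control and Cdh5 at 1.05 and 1.16. Single embryos of the first number did not all follow, since Tie1 in KI embryo 1 lay below both controls and Cdh5 and Erg below control embryo 2.

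Of the 65 other endothelial genes 22 were called higher and 6 lower at E9.5 (14.9% of all genes were lower), with a median log2 fold change of 0.19. The VEGF ligands and co-receptors had 6 of 8 higher and 0 lower. Vegfa, the ligand of Kdr and Flt1, was at 90.5 ± 4.0 CPM in control and 228 ± 15.1 in KI embryos (SD, n = 3; log2 1.33, adjusted p = 1.56e-09). Lyve1, a hyaluronan receptor of lymphatic and early venous endothelium, rose from 0.49 to 2.15 CPM (log2 2.14, adjusted p = 0.00975), and the SOXF factor Sox17 from 11.8 to 25.1 CPM (log2 1.09, adjusted p = 2.86e-05). Klf2, induced by flow, fell by 1.11 on the log2 scale (adjusted p = 0.00356), the gap junction gene Gja4 by 1.02 (adjusted p = 0.00182) and Notch1 by 0.97 (adjusted p = 2.33e-06). Cardiac muscle genes summed to 434 to 560 CPM in control and 1051 to 1955 in KI embryos, with 9 of 10 called higher and none at 0. Primitive erythroid genes summed to 3507 to 9666 CPM in control and 642 to 3280 in KI embryos, with 2 of 10 called lower and none at 0. Trophoblast genes summed to 81.7 to 153 CPM in control and 235 to 252 in KI embryos, with 3 of 8 tested called higher, and visceral endoderm genes to 63.8 to 78.8 and 124 to 307 CPM, with 0 of 10 called. Primitive streak genes summed to 143 to 155 and 180 to 217 CPM, with 1 of 8 called higher and 1 lower. Gata4 was at 11.6 to 21.9 CPM in control and 42.8 to 54.3 in KI embryos, Gata6 at 24.6 to 30.5 and 84.4 to 98.2, and Krt8 at 73.1 to 174 and 235 to 240. Neural genes were lower in KI embryos without overlap. Tubb3 was at 104 to 160 CPM in control and 23.8 to 26.5 in KI embryos, the neural progenitor gene Nes at 275 to 368 and 126 to 145, and the neuronal gene Map2 at 19.1 to 25.1 and 4.72 to 8.18. The part of these tissues in the endothelial results was not tested.

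The KI effect differed between the stages for Etv2, by 1.25 ± 0.32 on the log2 scale (adjusted p = 0.0219), where 3.39% of all genes were called in that direction. It was the only member called. The call was lost without E8.5 KI embryo 1, E8.5 control embryo 2, E9.5 KI embryo 2 or E9.5 control embryo 2, with an adjusted p of up to 0.0768. DESeq2 called 3 members, where it called 646 genes higher and 811 lower of 15030. Leaving out single embryos gave between 0 and 4 members (4 without E8.5 KI embryo 2, where 411 genes were called higher and 375 lower of 15710). The differences of Pecam1 (log2 -0.65, adjusted p = 0.118), Sox18 (-0.62, 0.0988) and Cdh5 (-0.53, 0.145) pointed to a smaller KI effect at E9.5 and were not called. Of the other endothelial genes 8 were called higher at E9.5 than at E8.5 in their KI effect and 6 lower (3.24% of all genes were lower).

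From E8.5 to E9.5 the control embryos themselves changed. Etv2 was at 13.0 to 18.9 CPM in the 3 embryos at E8.5 and at 0.78 to 0.99 at E9.5, 18.6-fold lower (log2 -4.22 ± 0.24, adjusted p = 9.16e-10). Kdr fell by 0.59 (adjusted p = 0.000103), so that 2 members were called lower where 12.1% of all genes were. Tek was at 32.3 to 38.1 CPM at E8.5 and 20.4 to 29.4 at E9.5, without overlap (log2 -0.53, adjusted p = 0.0516), and was called lower under 4 of 11 alternatives, DESeq2 among them. Pecam1 (log2 0.91, adjusted p = 0.00114), Erg (0.72, 0.00507), Cdh5 (0.50, 0.0227) and Tie1 (0.41, 0.0469) rose, 4 members where 12.2% of all genes did. Tie1 was called under 4 of 11 alternatives only, and the other 5 calls held under at least 8 of 11. Visceral endoderm and yolk sac genes summed to 116 to 669 CPM in these embryos at E8.5 and 63.8 to 78.8 at E9.5, with 8 of 10 called lower and none at 0. Cardiac muscle and primitive streak genes had 4 called lower each, of 10 and of 8, and 3 of 8 trophoblast genes tested were called lower, with sums of 204 to 245 and 81.7 to 153 CPM. Primitive erythroid genes summed to 754 to 1540 CPM at E8.5 and 3507 to 9666 at E9.5, with 1 of 10 called higher. Tubb3 was at 19.4 to 24.9 CPM at E8.5 and at 104 to 160 at E9.5. Of the 65 other endothelial genes 21 rose and 11 fell, with a median log2 fold change of 0.04. The part of these tissues in the changes of the members was not tested.

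In KI embryos Etv2 fell over the same interval by 2.97 ± 0.21 (7.83-fold, adjusted p = 3.37e-08), Kdr by 0.48 (adjusted p = 0.000504) and Sox18 by 0.44 (adjusted p = 0.0348), 3 members where 16.6% of all genes were called lower. Flt1 (log2 0.53, adjusted p = 0.006) and Erg (0.53, 0.023) rose, where 15.9% of all genes did. Pecam1 (log2 0.26, adjusted p = 0.241), Cdh5 (-0.03, 0.914) and Tie1 (-0.01, 0.973), called higher in controls, were not called here. Erg was called under 7 of 11 alternatives and Sox18 under 6. Tek (log2 -0.47, adjusted p = 0.0626) was called lower by DESeq2 and without E8.5 KI embryo 2, and Pecam1 higher without E8.5 KI embryo 3. The number of called members fell to 3 without E8.5 KI embryo 1, E9.5 KI embryo 2 or E9.5 KI embryo 3. Primitive erythroid genes summed to 119 to 225 CPM in KI embryos at E8.5 and 642 to 3280 at E9.5, with 5 of 10 called higher, and 4 of 8 primitive streak genes were called lower, with sums of 249 to 267 and 180 to 217 CPM. Neither list had a gene at 0. Of 8 trophoblast genes tested 1 was called higher and 1 lower, and Krt8 was at 381 to 491 CPM at E8.5 and 235 to 240 at E9.5. The part of these genes was not tested. Of the 65 other endothelial genes 17 rose and 12 fell, with a median of 0.03 against 0.02 over all genes.

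In the EB course, the largest fold of a member between KI and flox on any day was that of Kdr at day 4. Kdr was then at 218 CPM in the flox library and at 24.5 and 20.0 CPM in KI clones 27 and 48, 9.65-fold lower (0.5 CPM added). With 1 flox library a day there is no test of a single day, and a gene counted as past the fold when each clone, taken alone, differed 2-fold or more from flox on the same side. By that rule 3 members were lower at day 4, Kdr, Flt1 and Cdh5, where 4.43% of all genes with at least 1 CPM were lower. Flt1 was at 80.5 CPM in flox and 32.4 and 33.8 in KI, and Cdh5 at 1.48 against 0.32 and 0.09, from 29, 7 and 2 reads. Pecam1 was the 1 member past the fold in the other direction, with 5.31 CPM in flox and 12.2 and 11.1 in KI, where 1.45% of all genes were higher. Etv2 was at 9.91 CPM in flox and 4.66 and 5.38 in KI, 2-fold lower in clone 27 only.

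The list of naive stem cell genes, which includes genes of the ESC state, summed to 759 CPM in flox and 1360 to 1419 in KI at day 4, and primitive streak genes to 1226 and 772 to 865, with none of either list at 0 in any of these libraries. Cardiac muscle genes summed to 91.8 CPM in flox and 24.1 to 25.5 in KI, with none at 0, Gata4 was at 84.6 CPM in flox and 35.2 to 39.2 in KI, and the epithelial keratin gene Krt8 at 1268 and 275 to 351. Their part in the differences of Kdr, Flt1, Cdh5 and Pecam1 was not tested.

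By mean fold, Kdr, Flt1, Pecam1 and Cdh5 were closer to flox at day 10 than at day 4. Etv2 (2.75-fold against 1.89-fold) and Tek (1.67-fold against 1.16-fold) were further from it. So were Tie1 (1.70 against 1.11), Erg (1.42 against 1.02) and Sox18 (2.39 against 1.18). These last genes were under 1 CPM in every day 4 library, where the added 0.5 CPM drew their folds toward 1, so that their change between days cannot be read. Kdr was at 237 CPM in flox and 179 and 172 in KI, Flt1 at 51.9 against 67.0 and 60.1, and Pecam1 at 61.1 against 60.6 and 54.7. Cdh5 was at 121 CPM in flox and 128 and 76.2 in clones 27 and 48, so that the clones lay on both sides of flox. Tek was at 98.5 CPM in flox and 55.8 and 62.1 in KI, Tie1 at 57.8 against 41.6 and 27.3, and Erg at 8.03 against 6.80 and 4.42. Only Sox18 (18.3 CPM in flox, 7.98 and 6.79 in KI) and Etv2 (1.51 against 0.26 and 0.21, from 39, 5 and 5 reads) were past the fold, both lower, where 3.91% of all genes were. Cardiac muscle genes summed to 2536 CPM in flox and 266 to 368 in KI at day 10, and visceral endoderm genes to 226 and 797 to 957, with none of either list at 0, and their part was not tested. At day 0, 0 members were past the fold in either direction.

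Averaged over the 3 days, with day in the model, 0 of 9 members were called, where 0.73% of 16567 genes were called in either direction. The fit took all libraries as independent, though the same KI clones were seen on each day and deviated together (correlations 0.151 to 0.431). Its p-values may therefore be too low. Under the 16 alternatives the log2 value of Kdr ranged from -2.97 to -0.58. At an unadjusted p under 0.05 there were 4, Kdr (log2 -1.97 ± 0.53, adjusted p = 0.142), Etv2 (-1.24, 0.195), Sox18 (-0.93, 0.193) and Tek (-0.57, 0.208), all lower in KI, where 8.76% of all genes were lower at that threshold and 16.4% passed it in either direction. DESeq2 called 1 member, Kdr. Without the day 10 flox library Kdr was called, and without the day 4 flox library Tek was. Of the other 65 endothelial genes 0 were called higher and 2 lower, Vwf, the von Willebrand factor gene (log2 -2.53, adjusted p = 0.0116), and Notch1 (-1.14, 0.0349).

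**Figure D3:**
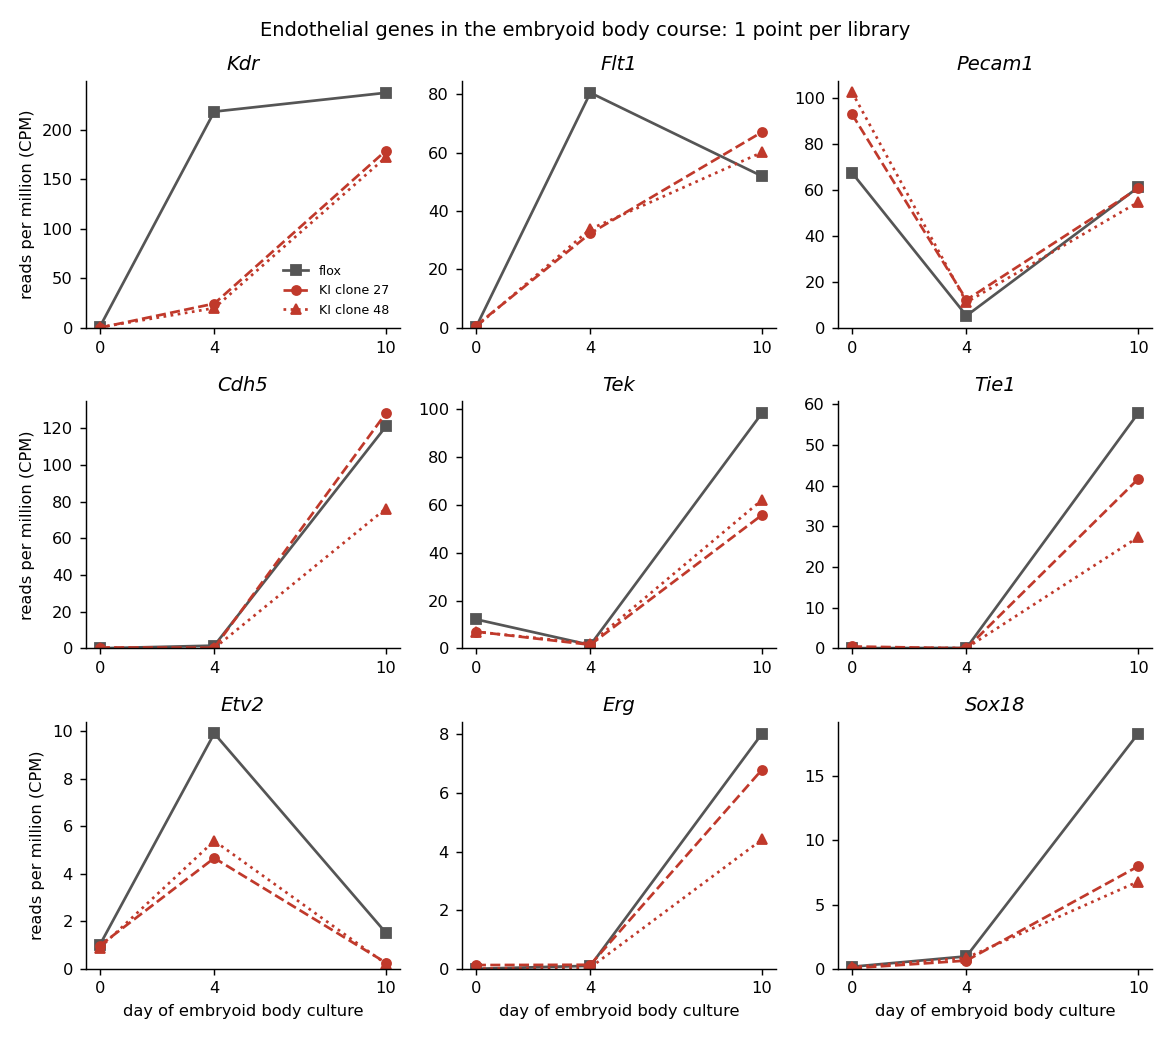
CPM (linear axis from 0) of each gene against day of culture, 1 point per library, with flox in grey and KI clones 27 and 48 in red. Kdr reaches 218 CPM in flox at day 4 and 20.0 to 24.5 in KI, while its 3 libraries lie closer at day 10.

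Between days, the 6 KI libraries allowed a test. From day 0 to day 4, 4 members rose (26.5% of all genes were called higher) and 2 fell (23.8%). Kdr went from 0.21 and 0.63 CPM in clones 27 and 48 to 24.5 and 20.0 (log2 5.61 ± 0.27, adjusted p = 1.09e-05). Flt1 went from 0.76 and 0.38 CPM to 32.4 and 33.8 (log2 5.75, adjusted p = 2.3e-06), and Etv2 from 0.98 and 0.88 to 4.66 and 5.38 (log2 2.33, adjusted p = 0.000453). Sox18 rose from 1 and 3 reads to 14 and 19 (log2 2.98, adjusted p = 0.00257). Pecam1 fell from 92.8 and 102 CPM to 12.2 and 11.1, by 3.16 ± 0.11 on the log2 scale (adjusted p = 1.7e-06), and Tek from 7.001 and 6.98 CPM to 1.51 and 1.99 (log2 -2.09, adjusted p = 5.14e-05). Cdh5, Tie1 and Erg had 0 to 11 reads in any of these 4 libraries and were not called. Other lists moved over the same days. Naive stem cell genes, which fell with Pecam1 and Tek, summed to 4884 to 5183 CPM at day 0 and 1360 to 1419 at day 4, with 7 of 8 called lower. Primitive streak genes, which rose with Kdr, Flt1 and Etv2, summed to 30.4 to 42.1 and 772 to 865 CPM, with 8 of 8 called higher. No gene of either list was at 0, and the part of either was not tested. Of 64 other endothelial genes tested 27 rose and 12 fell.

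From day 4 to day 10, 8 members rose (36.7% of all genes) and Etv2 fell (36.6%). Etv2 reached 0.26 and 0.21 CPM at day 10, a fall by 4.49 ± 0.34 on the log2 scale (adjusted p = 2.1e-05). Tie1 and Cdh5 rose the most, followed by Erg and Tek. Cdh5 had 9 reads in the 2 day 4 KI libraries and 4334 at day 10, a ratio of 486 (95% exact interval 256 to 1060, counting error only). Tie1 had 2 and 1470 reads, a ratio of 742 (205 to 6130). Erg had 4 and 239 reads, a ratio of 60.3 (23.3 to 223). Tek rose by 4.99 on the log2 scale (adjusted p = 7.75e-07), Sox18 by 3.21, Kdr by 2.90, Pecam1 by 2.22 and Flt1 by 0.86. All 9 calls held under the 9 alternatives run, the clone as a block among them. Genes known from other cell types rose over the same days. Primitive erythroid genes summed to 2.53 to 3.34 CPM at day 4 and 332 to 345 at day 10 (7 of 9 tested called higher), and leukocyte genes to 1.85 to 1.96 and 39.8 to 194 CPM (5 of 6 tested). Visceral endoderm genes summed to 12.7 to 13.8 and 797 to 957 CPM (9 of 10), and cardiac muscle genes to 24.1 to 25.5 and 266 to 368 CPM (8 of 10). Of the naive stem cell genes 6 of 8 were called lower and 1 higher, and of the primitive streak genes 7 of 8 lower and 1 higher. At day 4, 1 erythroid gene and 2 leukocyte genes were at 0, and the part of these lists in the changes of the members was not tested. Of 64 other endothelial genes tested 57 rose and 3 fell.

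In the neural cultures at day 8, all 9 members fell in KI, where 13.2% of all 16439 genes tested were called lower, and the 2 groups overlapped for none of the 9 (37.7% of all genes lay below in both KI libraries). The median log2 fold change was -2.78 against 0.01 over all genes.

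Kdr was at 36.2 and 37.0 CPM in flox and 6.34 and 4.11 in KI clones 27 and 48, 6.87-fold lower (log2 -2.78 ± 0.26, adjusted p = 0.000102). Flt1 was at 15.6 and 14.4 CPM in flox and 4.96 and 4.36 in KI, the smallest of the 9 changes (log2 -1.65 ± 0.20, adjusted p = 7.99e-05). Tek was at 2.50 and 3.17 CPM against 0.41 and 0.33 (log2 -2.91, adjusted p = 0.000102), and Tie1 at 18.1 and 18.8 against 2.11 and 1.31 (log2 -3.41, adjusted p = 6.64e-06). In each of these clone 48 was the lower KI library.

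Pecam1 was at 21.1 CPM in both flox libraries and 4.82 and 3.25 in KI (log2 -2.36 ± 0.25, adjusted p = 3.45e-05). Cdh5 was at 23.4 and 23.0 CPM against 5.54 and 3.70 (log2 -2.30 ± 0.45, adjusted p = 0.0144). Its call was lost under 5 of 9 alternatives, DESeq2 among them. Of the factors, Sox18 was at 5.29 and 5.59 CPM in flox and 0.62 and 0.25 in KI, the largest of the 9 changes (log2 -3.64 ± 0.29, adjusted p = 3.68e-06). Erg was at 4.47 and 4.57 CPM against 0.78 and 0.43 (log2 -2.88, adjusted p = 8.82e-06). Etv2 had 24 and 32 reads in flox and 4 and 8 in KI (log2 -2.14, adjusted p = 0.00643) and was not called by DESeq2 or without the clone 27 library.

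Of the 65 other endothelial genes, 64 were tested, 50 fell and 2 rose (6.3% of all genes were called higher). The shares of all genes at day 8 moved with the fit, to 11.6% higher and 16.4% lower for the day 8 libraries alone, 2.8% and 8.83% without flox library 1, and 2.72% and 8.63% without flox library 2. Of the 14 endothelial and haemogenic factors 13 fell, and of 25 surface and junction genes tested 22 fell. Aplnr, the apelin receptor, was at 4.04 CPM on average in flox and 0.15 in KI (log2 -4.68, adjusted p = 9.71e-07), the gap junction gene Gja5 at 2.11 and 0.12 (log2 -4.09, adjusted p = 3.13e-06) and Lyve1 at 1.72 and 0.14 (log2 -3.55, adjusted p = 1.43e-05). The ephrin gene Efnb2 (log2 0.40) and Prox1 (0.39), genes also expressed in neural tissue, rose. Of the lists of other cell types, 3 fell as well. Primitive erythroid genes summed to 13.1 to 13.8 CPM in flox and 1.82 to 2.14 in KI, with 5 of 8 tested called lower and 1 of 10 at 0 in KI. Cardiac muscle genes summed to 17.98 to 18.7 and 4.32 to 4.91 CPM, with 4 of 9 tested called lower and 1 of 10 at 0 in flox, and visceral endoderm genes to 22.5 to 22.8 and 11.2 to 11.6 CPM, with 6 of 9 tested called lower and none at 0. Sums of the remaining lists lay on either side of flox. Trophoblast genes summed to 11.6 to 13.1 CPM in flox and 20.98 to 22.1 in KI, with 2 of 6 tested called higher, 1 lower and 2 of 10 at 0 in each group. Naive stem cell genes summed to 289 to 291 and 374 to 396 CPM, with 2 of 6 tested called higher, 2 lower and 1 of 8 at 0 in KI. Pou5f1, Nanog and Zfp42 of that list were at 0.16 to 0.67, 0.02 to 0.27 and 0.18 to 0.33 CPM over both groups, so that its sums rest on its other genes. Primitive streak genes summed to 205 to 208 and 142 to 169 CPM, with 1 of 6 tested called higher, 1 lower and none at 0. Leukocyte genes, none of which passed the filter, summed to 0.39 to 0.41 and 0.20 to 0.21 CPM. The endoderm and heart factor Gata4 was at 42.0 CPM in both flox libraries and 6.92 to 7.53 in KI, and Tubb3 at 572 to 577 and 425 to 485. Gata6 was at 34.4 to 36.8 CPM in flox and 9.68 to 12.7 in KI, Map2 at 258 to 267 and 145 to 166, and Pax6 at 134 to 137 and 104 to 119. Gata3 went the other way, at 2.01 to 2.27 and 6.75 to 8.93 CPM. The part of these genes in the endothelial result was not tested.

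At day 16, 8 of the 9 members were at or below 1 CPM in every library of both groups, and Kdr was the exception. It was at 45.0 and 42.9 CPM in flox and 2.04 and 0.87 in KI clones 27 and 48, 26.7-fold lower (log2 -4.74 ± 0.30, adjusted p = 4.86e-06), and the call held under all 9 alternatives run. Erg was also called lower, from 9 and 3 reads in flox and 1 in each KI library (CPM 7.27 times as high in flox over the pooled reads, 95% exact interval 1.62 to 66.8). These 2 members stood against 19.7% of all genes called lower. Without the clone 48 library or flox library 1 only Kdr was called, and the Erg call was also lost without clone 27 and with DESeq2. Pecam1 (0.67 and 0.28 CPM in flox, 0.98 and 0.50 in KI), Cdh5 (0.62 in both flox libraries, 0.72 and 0.05 in KI), Tek, Tie1 and Etv2 overlapped between the groups and were not called. Flt1 (0.76 and 0.85 CPM in flox, 0.57 and 0.22 in KI) and Sox18 (0.53 and 0.54 against 0.28 and 0.20) did not overlap and missed the threshold (adjusted p = 0.0594 and 0.069). Without the clone 27 library Cdh5 (log2 -3.34 against -0.53, adjusted p = 0.00288) and Flt1 (adjusted p = 0.0037) were called lower. Flt1 was also called by DESeq2 and with no filter on low counts, and Sox18 in a fit of the day 16 libraries alone (adjusted p = 0.0399). Cardiac muscle genes summed to 9.72 to 11.8 CPM in flox and 5.68 to 6.75 in KI, with 3 of 9 tested called lower and 1 of 10 at 0 in each group, and visceral endoderm genes to 29.6 to 31.8 and 10.5 to 14.1 CPM, with 2 of 9 tested called lower and 1 of 10 at 0 in each group. Naive stem cell genes had 4 of 6 tested called lower, and trophoblast genes 3 of 6. The endoderm and heart factors Gata6 and Gata4 were at 44.5 to 48.8 and 8.92 to 9.28 CPM in flox and 4.63 to 9.38 and 0.87 to 1.70 in KI. Tubb3 was at 754 to 901 CPM in flox and 1204 to 1557 in KI, and Map2 at 554 to 687 and 957 to 1012. Their part in the Kdr result was not tested.

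Of the 64 other endothelial genes tested at day 16, 6 rose and 26 fell, where 27.1% of all genes were called higher and 19.7% lower (15.6% and 20.3% in a fit of the day 16 libraries alone), with a median log2 fold change of -0.29 against 0.09 over all genes. The VEGF ligands and co-receptors had 6 of 8 lower. Tal1, a blood and endothelial factor also expressed in neurons, was at 0.61 ± 0.17 CPM in flox and 2.47 ± 0.61 in KI (SD, n = 2; log2 2.19, adjusted p = 5.51e-05). Cldn5 (log2 2.35) and Emcn (1.15) also rose, and Ecscr (-2.89), Angpt4 (-2.39) and Aplnr (-2.03) fell, each at 1.04 CPM or less on average in either group.

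The KI effect changed between day 8 and day 16 for 5 members. It was stronger at day 16 for Kdr (log2 difference -1.96 ± 0.40, adjusted p = 0.00568), 1 member where 14.0% of all genes were called in that direction. The difference was positive for Pecam1 (3.10 ± 0.47, 0.000467), Tie1 (5.14 ± 1.18, 0.00608), Sox18 (2.69 ± 0.53, 0.00225) and Tek (2.64 ± 0.67, 0.0103), 4 members where 19.2% were. In day 16 flox these 4 were at 0.28 to 0.67, 0 to 0.05, 0.53 to 0.54 and 0.10 to 0.42 CPM, levels from which a fall in KI could hardly be seen. The day 16 log2 fold changes of Pecam1 (0.74) and Tie1 (1.73) were positive and not called. Tie1 had 3 and 0 reads in flox and 10 and 1 in KI at day 16. Without the day 16 clone 27 library 3 members were called, with Tek and Tie1 lost (adjusted p of Tie1 = 0.421), and without day 8 flox library 1 the adjusted p of Kdr was 0.0502. Of the other endothelial genes 31 were called in the direction of Pecam1 and 9 in that of Kdr.

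**Figure D4:**
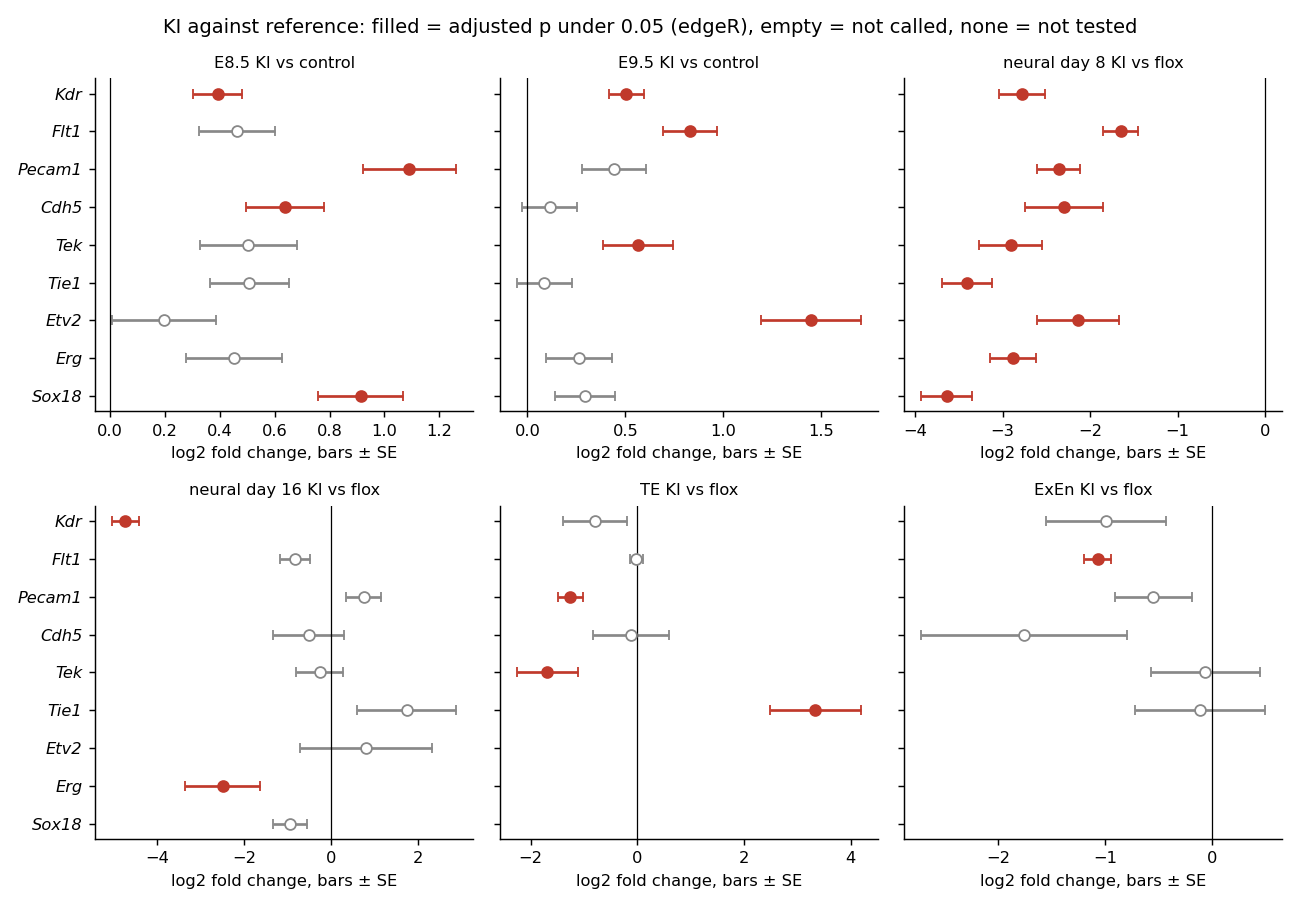
Log2 fold change of KI against its reference for each gene, with bars of ± 1 SE, in 6 comparisons with separate axes. Filled red points passed an adjusted p of 0.05, open points did not, and Etv2, Erg and Sox18 were not tested in TE and ExEn. All 9 points lie right of 0 in embryos and left of 0 at neural day 8, and Kdr stands apart at neural day 16.

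In the TE cultures Flt1 was the leading member, at 76.6 and 66.6 CPM in flox and 65.4 and 73.1 in KI clones 27 and 48, with overlapping values and a log2 difference of -0.02 ± 0.13 (adjusted p = 0.931). Pecam1 fell from 10.2 and 12.6 CPM to 4.03 and 5.30 (log2 -1.26 ± 0.24, adjusted p = 0.000514). Tek fell from 32 and 50 reads to 5 and 22 (log2 -1.69 ± 0.57, adjusted p = 0.024), a call lost without the clone 27 library or flox library 2. Tie1 rose from 2 reads in each flox library to 22 and 24 (adjusted p = 0.00467), a ratio of 10.5 in CPM over the pooled reads with a 95% exact interval of 3.84 to 40.2. These were 2 of 6 tested members lower where 24.2% of all 15532 genes were, and 1 higher where 26.7% were. Kdr was at 2.92 and 3.23 CPM in flox, and its KI clones lay apart at 0.47 (clone 27) and 3.01 (clone 48). Without the clone 48 library Kdr was called lower (adjusted p = 0.000116). Cdh5 was at 0.91 and 0.50 CPM in flox and 0.25 and 1.02 in KI, and Etv2, Erg and Sox18 had 0 to 12 reads in any library and were not tested.

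Of 54 other endothelial genes tested in TE, 14 rose and 17 fell. Gata2, a factor of both endothelium and trophoblast, was at 52.8 ± 0.8 CPM in flox and 367 ± 52.8 in KI (SD, n = 2; log2 2.83, adjusted p = 3.41e-05), and Mef2c (log2 3.54) and Lmo2 (3.27) rose to 0.51 and 1.36 CPM. Notch4 (log2 -2.08), Notch1 (-1.93) and Nos3 (-1.90) fell. Trophoblast genes summed to 547 to 555 CPM in flox and 1165 to 1255 in KI, with 6 of 8 tested called higher, 1 lower and 2 of 10 at 0 in flox. Naive stem cell genes summed to 1056 to 1085 and 342 to 452 CPM, with 8 of 8 called lower and none at 0. Cardiac muscle genes had 4 of 9 tested called lower, and primitive streak genes 4 of 7 tested called higher. As given above, the libraries labelled TE flox were lower in Cdx2 and higher in Pou5f1 and Nanog. What part these genes had was not tested.

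In the ExEn cultures Flt1 was the 1 member called, at 107 and 101 CPM in flox and 58.4 and 42.8 in KI clones 27 and 48, 2.10-fold lower without overlap (log2 -1.07 ± 0.13, adjusted p = 0.000119), where 17.4% of all genes were called lower. The call held under all 9 alternatives run. Kdr was at 6.97 and 6.69 CPM in flox and 3.99 and 3.03 in KI, also without overlap (log2 -0.99 ± 0.56, adjusted p = 0.217), and was called in the fit of the ExEn libraries alone (adjusted p = 0.00733). Tek, at 2.28 and 2.15 CPM in flox and 1.60 and 2.73 in KI, and Tie1, at 1.36 and 1.07 against 1.78 and 0.51, overlapped between the groups. Pecam1 was at 1.21 and 1.23 CPM in flox and 0.98 and 0.71 in KI. Cdh5 had 12 and 8 reads in flox and 2 and 4 in KI and was not called, and Etv2, Erg and Sox18 had 0 to 8 reads and were not tested. As given above, the libraries labelled ExEn KI were low in endoderm genes. Visceral endoderm and yolk sac genes summed to 1452 to 1481 CPM in flox and 85.6 to 90.0 in KI, with 9 of 10 called lower and 3 at 0 in KI. Primitive streak genes had 5 of 7 tested called lower, and trophoblast genes 4 of 8 tested called higher and 2 lower. The part of these lists in the Flt1 result was not tested.

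Of 54 other endothelial genes tested in ExEn 8 rose (18.1% of all genes did) and 18 fell. Sox7 (32.1 CPM in flox, 2.27 in KI, log2 -3.85) and Sox17 (76.5 and 11.3 CPM, log2 -2.78) fell, both SOXF factors of endothelium and of endoderm, as did Ramp2 (-2.66). Klf2 (log2 2.04), Esam (1.94) and Gata2 (1.66) rose. The KI effect differed between TE and ExEn for Flt1 by 1.05 ± 0.18 on the log2 scale (adjusted p = 0.00123) and for Tie1 by 3.45 ± 1.07 (adjusted p = 0.0209), 2 of 6 tested members where 18.3% of all genes were called in that direction. The Flt1 difference was called under all 13 alternatives run, and that of Tie1 under 9. Without TE clone 48, which left 1 KI library in TE, the Kdr difference turned from 0.20 to -1.67. Only 1 member, Flt1, was called without ExEn clone 48, ExEn flox library 1, TE flox library 1 or TE flox library 2. Of the other endothelial genes 13 were called higher in TE than in ExEn in their KI effect and 10 lower, where 17.0% of all genes were lower.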

How the data were processed

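RNA sequencing tables of 37 libraries in 18 groups were used out of 100 samples, and the other 63 were not analysed here. Per the file headers, the authors deposited a read count and an RPKM value for each of 29082 RefSeq transcripts. Per the submitters' processing notes, the build was mm9 and the tools included bcl2fastq, Bowtie2, STAR and SICER 1.1, with no role given. Strand is not stated, and the annotation lists genes that overlap Kdr, Flt1 and Cdh5, whose reads could not be told apart.

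The transcript with the most reads was taken per gene (23109 entries; 28436 transcripts matched a symbol, 646 did not). Pecam1 had 2 transcripts of nearly equal reads. Tables held 25419181 to 83946108 reads. The quasi-likelihood test of edgeR 4.0.16 in R 4.3.3 was run on the counts, robust, with TMM factors, after filterByExpr at a minimum of 10, and p-values were adjusted over all genes (Benjamini-Hochberg). Fits covered all embryos, the EB course, the KI EB libraries, the neural cultures, and TE with ExEn. RPKM was used only to compare genes. Intervals and floors cover counting error only.

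Same-numbered E8.5 embryos deviated together (correlations 0.363, 0.409 and 0.185), and KI libraries of 1 clone are the same line. Alternatives were DESeq2 1.42.0, other scaling and filters, blocks, summed transcripts and each library left out, and, chosen after seeing the data, single clones and another pseudocount or minimum for single EB days. Beside the members, other endothelial genes were named, where called between KI and its reference, up to 3 a direction with the largest log2 change, from a list of 65, and only counted elsewhere. The scripts were tested on simulated data. Members and lists were chosen with earlier results of these data known.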

Additional observations from a re-analysis of the deposited data

Results flagged for a closer look

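For 8 values the KI effect differed between groups of samples by a test of the difference itself (edgeR's quasi-likelihood test). Between E9.5 and E8.5 embryos this was Etv2, by 1.25 on the log2 scale. Between neural day 16 and day 8 it was Kdr, by -1.96, Pecam1, by 3.10, Tek, by 2.64, Tie1, by 5.14, and Sox18, by 2.69. Between TE and ExEn it was Flt1, by 1.05, and Tie1, by 3.45. The Tie1 differences rest on 0 to 10 reads a library at neural day 16 and on 2 reads in each TE flox library. At neural day 16 Pecam1, Tek and Sox18 were also under 1 CPM in every library.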

How the results depend on the processing

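Of 1334 values of single members under an alternative, 1210 kept their direction and their side of the threshold, 54 lost a call, 39 gained one and 31 changed sign. DESeq2 called 7 members at E8.5, 5 at E9.5, 7 for control E9.5 against E8.5, 3 for the difference between stages and 1 in the EB course. Among all genes DESeq2 called 2225 of 16589 higher at E9.5, and 2056 higher and 1890 lower of 16979 between the control stages. Fitting the ExEn libraries alone called 2 members, both lower, where 2776 of 14645 genes were called lower. Leaving out 1 library gave 2 to 7 called members at E8.5, 0 to 4 for the difference between stages, 3 to 5 for KI E9.5 against E8.5, 0 to 1 in the EB course, 1 to 3 at neural day 16, 3 to 7 for day 16 against day 8, and 1 to 4 for TE against ExEn.

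With the title number as a block, 5 members were called at E8.5, where 766 of 15436 genes were called higher. At E9.5 the correlations of same-numbered embryos ran from -0.011 to 0.224, the highest of them above the lowest at E8.5 (0.185). The block called 3 members there, with Tek lost (adjusted p = 0.0749), where 2607 of 15436 genes were called higher. The clone or line as a block left the called members at 6 and 9 between EB days, 5 for neural day 16 against day 8 and 2 for TE against ExEn.

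The log2 values that changed sign belonged to results not called with all libraries, and the cause was not tested. Erg in the EB course was 0.293 with clone 27 only, and the Kdr difference between TE and ExEn was -0.032 with the line as a block. With 1 library left out, the log2 values ranged as follows. In embryos, Tie1 at E9.5 ranged from -0.001 to 0.164, the Tek stage difference from -0.093 to 0.258, and KI E9.5 against E8.5 from -0.195 to 0.174 for Cdh5 and -0.172 to 0.129 for Tie1. In the EB course Flt1 ranged from -0.926 to 0.416, Tie1 from -0.766 to 0.771 and Erg from -0.457 to 0.577, and between KI days 0 and 4 Tie1 from -5.638 to 0.006 and Erg from -0.547 to 4.117. At neural day 16 Cdh5 ranged from -3.339 to 0.417, Tek from -0.826 to 1.161, Tie1 from -0.637 to 5.416 and Etv2 from -2.31 to 3.097, and the difference from day 8 from -1.038 to 2.711 for Cdh5 and -0.182 to 5.233 for Etv2. In TE Flt1 ranged from -0.146 to 0.061 and Cdh5 from -1.41 to 0.54, in ExEn Tek from -0.509 to 0.278 and Tie1 from -1.282 to 0.511, and the Kdr difference between them from -1.665 to 0.969.

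Over all genes, DESeq2 called 369 higher and 409 lower in the EB course against 66 and 55 in the main analysis, and 1 clone alone gave 0 or 1 in all. At E8.5 DESeq2 called 747 and 445 and the title number block 766 and 538, against 560 and 283. For the stage difference the block called 798 and 749 against 524 and 500. Fitting the neural day 16 libraries alone called 2467 higher and 3219 lower, against 4459 and 3245. With 1 library left out, the genes called in either direction went from 843 down to 363 at E8.5 (without control embryo 3), from 1024 to 607 for the stage difference (without E9.5 KI embryo 2), from 3202 to 1896 at neural day 8 (without flox library 2), from 5450 to 3621 for day 16 against day 8 (without day 8 flox library 2), from 5520 to 3641 in ExEn (without flox library 1) and from 7882 to 4982 between KI days 0 and 4 (without day 4 clone 27). In the EB course the number went from 121 to between 26 (without day 4 clone 48) and 332 (without the day 10 flox library). Genes with 0 to 12 reads a library in TE, ExEn and neural day 16 allow no firm statement.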
